A study of Mus musculus with 75 samples.

Results

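The glucocorticoid target genes described here are 10 genes of mouse enteric glia: Fkbp5, Tsc22d3, Per1, Sgk1, Zbtb16, Klf9, Txnip, Cdkn1a, Dusp1 and Nr3c1. They were taken by symbol, and each was present once in both deposited count tables, which list 21051 and 21076 symbols. All 10 passed the filter on low counts in every comparison. The samples were RNA-seq libraries of cells labelled as enteric glial cells, and how these cells were taken from the gut wall is not given in the sources used here. At 2 h there were 16 libraries of the myenteric plexus of mice with an eGFP reporter transgene, with 4 per treatment and region (2 female and 2 male). At 24 h there were 37 libraries of the myenteric plexus from 22 mice that all carried the same reporter. Of these mice 11 had intact Gpr37 (Gpr37WT, called wild type below) and 11 lacked Gpr37 (Gpr37-/-, called knockout below), and 15 gave a library of both regions. The treated mice received a single intraperitoneal dose of 2 mg/kg lipopolysaccharide (LPS), an endotoxin of E. coli, and the controls received phosphate-buffered saline (PBS). In wild-type mice at 24 h, PBS gave 6 small-intestinal and 4 colonic libraries and LPS gave 4 and 5. In knockouts PBS gave 4 and 5, and LPS gave 5 and 4. A further 22 libraries came from untreated mice with this reporter, of which the myenteric ones (6 of the small intestine, 5 of the colon) serve here as a baseline. The Gpr37 product is an orphan receptor of the G protein-coupled class that glia carry, and the study set its loss beside the response of glia to inflammation.

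Glucocorticoids are adrenal steroids released under stress and inflammation, including after endotoxin. They enter cells and bind the glucocorticoid receptor, the product of Nr3c1, which is held by Hsp90 and its co-chaperones until the steroid binds, and which then moves to the nucleus and binds DNA at palindromic response elements. Among the receptor's well-known targets, Fkbp5 encodes a co-chaperone that lowers the receptor's affinity for its ligand and so closes a feedback loop. Tsc22d3 encodes GILZ, a leucine zipper protein that dampens inflammatory transcription factors, and Dusp1 encodes a phosphatase that switches off p38 and JNK kinases. Zbtb16 and Klf9 encode transcription factors, Per1 a repressor of the circadian clock, and Sgk1 a kinase known for control of ion transport. Txnip encodes an inhibitor of thioredoxin and of glucose uptake, and Cdkn1a encodes the cell cycle inhibitor p21. Several of these genes also answer to other signals: Dusp1 is an immediate early gene, Cdkn1a a target of p53, Per1 a clock gene, and Txnip a target of the glucose-sensing factor MondoA.

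RefSeq promoter entries of GRCm38.p6 matched 8 of the 10 members, with 17 promoters in all, and not Zbtb16 or Nr3c1. The 250 bases before each start were searched on both strands. A full palindromic response element was searched as AGAACA, any 3 bases, then TGTTCT, and its 6-base element alone as AGAACA or TGTTCT, so that each full palindrome also counts as the shorter element. The full palindrome was present in 3 of 32851 promoters (0.00913%), and among the members in 1 of the 3 Sgk1 promoters that hold the shorter element. The shorter element was present in 16.1% of all promoters and in 4 of the 17 member promoters, 3 of Sgk1 and 1 of Tsc22d3. The cyclic AMP response element TGACGTCA was present in 1.55% of all promoters and in Dusp1. The E-box CACGTG, a clock-type element, was present in 6.02% of all promoters and in 1 promoter each of Sgk1, Per1, Dusp1 and Fkbp5. The stretches below are shown because each holds a searched element, and that of Sgk1 the full palindrome. Each runs 5′ to 3′ on the strand of its gene, with the named element and 50 bases on either side, and capitals mark every searched element in it, which in Dusp1 adds an E-box. The sites lie on the plus strand for Sgk1 and Per1 and on the minus strand for Dusp1 and Fkbp5, and a match is a description of the letters, not a shown binding site. The element begins 189 bases before the start in Sgk1 (palindrome), 166 in Per1 (E-box), 143 in Dusp1 (cyclic AMP response element) and 169 in Fkbp5 (E-box).
Sgk1, chr10:21993651-21993765: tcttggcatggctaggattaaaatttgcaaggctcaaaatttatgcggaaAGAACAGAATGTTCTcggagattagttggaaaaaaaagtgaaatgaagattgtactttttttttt
Per1, chr11:69098733-69098838: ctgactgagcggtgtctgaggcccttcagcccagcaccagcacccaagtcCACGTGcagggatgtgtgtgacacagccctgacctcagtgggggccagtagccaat
Dusp1, chr17:26508558-26508665: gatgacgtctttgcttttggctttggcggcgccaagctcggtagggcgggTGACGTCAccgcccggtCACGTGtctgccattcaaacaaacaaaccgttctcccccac
Fkbp5, chr17:28486263-28486368: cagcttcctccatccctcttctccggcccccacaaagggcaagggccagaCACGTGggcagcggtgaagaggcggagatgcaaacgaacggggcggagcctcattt

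Each 2 h library held between 1990744 and 7883251 counts, with a median of 4412983, and each 24 h library between 2882539 and 33283346, with a median of 8286820. Gpr37 had 3 or fewer counts in 17 of 18 knockout libraries (at most 9) and 33 to 158 counts in the 10 wild-type PBS libraries. Of the 9 wild-type LPS libraries, 4 had 2 or fewer counts and the others at least 20. These 4 were both libraries of mouse 3, the single library of mouse 5 (colon) and the colon library of mouse 8, whose small intestine had 100. At 2 h, colon libraries of reporter mice without a knockout label held 0, 41, 6 and 0 counts with PBS and 1, 1, 12 and 0 with LPS. Small-intestinal libraries held 137, 91, 172 and 254 with PBS and 160, 3, 59 and 309 with LPS. Low counts of this gene thus neither support nor contradict the wild-type label of mice 3 and 5, which are grouped here as labelled. The glial markers Sox10, S100b, Gfap, Erbb3 and Foxd3 were each present in every group. Markers of smooth muscle and fibroblasts were also present in every group, so the libraries were not of pure glia. Neutrophil markers (S100a8, S100a9, Retnlg, Ngp, Ly6g) summed to at most 1.09 counts per 1000000 (CPM) in 16 of the 19 PBS libraries at 24 h and to 7.66 to 143 CPM in the other 3, and to 0.725 to 2310 CPM in the LPS libraries. Of 5 such markers, the number that rose with LPS (edgeR) was 4 for wild-type small intestine, 2 for wild-type colon and 1 for each region of knockouts. Fibroblast markers summed to 13545 to 21763 CPM with PBS and 659 to 8597 CPM with LPS in the wild-type colon, and 2 of 5 were called lower in each wild-type region. In the wild-type small intestine at 24 h the glial marker Gfap rose (2.58 ± 0.63 on the log2 scale, edgeR adjusted p = 0.00928). The macrophage marker Cx3cr1 was called lower there. The sum of 5 macrophage markers had a higher median with LPS (289 CPM) than with PBS (188 CPM), and the groups overlapped. Mesothelial markers summed there to a median of 1724 CPM with PBS and 247 CPM with LPS, with none of 5 called. The endothelial marker Tek was called lower in the wild-type colon. The part of these cells in the members' values was not tested. Libraries of mice numbered 10 and below held a median of 15.4% mitochondrial counts against 4.57% in the others, and this division was found in the data. Such mice gave 3 of 5 LPS and 0 of 4 PBS libraries of the wild-type colon, and 2 of 4 and 1 of 6 of the wild-type small intestine.

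In untreated myenteric glia the members differed widely in level. On the scale of CPM per kilobase of exon, which allows genes to be compared, Txnip was the highest, at 426 ± 183 (SD, n = 6) in the small intestine and 449 ± 146 (SD, n = 5) in the colon. Tsc22d3 followed at 167 ± 70.2 and 147 ± 78.0, then Dusp1 at 99.4 ± 45.1 and 86.2 ± 20.2. Cdkn1a stood at 71.8 ± 25.9 and 85.3 ± 31.4, and Klf9 at 61.4 ± 31.0 and 55.4 ± 27.7, so the mean ± SD ranges of Dusp1, Cdkn1a and Klf9 overlapped. Those of Tsc22d3 and Dusp1 also overlapped in both regions. The receptor gene Nr3c1 was at 18 ± 4.01 and 20.9 ± 4.32, beside Sgk1 at 23.7 ± 11.6 and 15.8 ± 4.69. Zbtb16 (3.68 ± 4.55 and 5.49 ± 7.05), Fkbp5 (3.18 ± 3.58 and 4.60 ± 5.65) and Per1 (2.73 ± 1.58 and 3.56 ± 1.74) were the lowest and lay within each other's spread. Fkbp5 and Zbtb16 had an SD above their mean in both regions, and among the untreated colon libraries Fkbp5 ran from 0.174 to 125 CPM. Against untreated mice, no member passed the test 2 h after PBS in either region (edgeR quasi-likelihood test with Benjamini-Hochberg adjustment), beside 0% of the 13903 genes tested in small intestine and 0.0144% in colon. DESeq2 called no member either, and at an unadjusted p under 0.05 there were 0 members for small intestine and 1 for colon, Per1, with a log2 fold change of -1.45 ± 0.62 (SE), beside 937 and 1120 of all genes. The untreated and the 2 h libraries are separate experiments, so handling and experiment cannot be told apart there.

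At 2 h after LPS, Cdkn1a and Dusp1 rose in both regions, Txnip fell in the small intestine, and Fkbp5, a classical glucocorticoid target, did not pass the test in either region. The calls came to 3 of 10 members in the small intestine, beside 1.1% of the 13107 genes tested, and to 2 of 10 in the colon, beside 0.778%. No gene of a cell type marker list was called at this time, and neutrophil markers summed to at most 3.00 CPM with PBS and at most 156 CPM with LPS. The members' median log2 fold change was 0.44 in small intestine and 0.53 in colon, against -0.021 and -0.0022 over all genes.

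Dusp1, the member with the cyclic AMP response element in its printed promoter, read 98.7, 210.1, 272 and 294 CPM in the PBS libraries of the small intestine and 949.8, 973, 1102 and 1262 CPM in the LPS libraries. The groups were far apart, with a log2 fold change of 2.29 ± 0.36 (SE, adjusted p = 0.00157, edgeR quasi-likelihood test, Benjamini-Hochberg adjustment across all genes, as for all adjusted p below). In the colon its PBS libraries read 193, 202, 277 and 487 CPM and its LPS libraries 679.7, 680.0, 764 and 1269 CPM. Every LPS library again lay above every PBS library, by a log2 fold change of 1.55 ± 0.35 (edgeR, adjusted p = 0.0496).

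Cdkn1a read 166, 249.6, 251 and 486 CPM with PBS in the small intestine and 989.6, 1126, 1217 and 1219 CPM with LPS. Its 4 LPS libraries were close together and above all PBS libraries, by a log2 fold change of 1.98 ± 0.28 (edgeR, adjusted p = 0.000627). In the colon the values were 368, 424, 479.7 and 530.1 CPM with PBS and 789, 1069, 1157 and 1239 CPM with LPS. The groups did not overlap there either, and the log2 fold change was 1.24 ± 0.27 (edgeR, adjusted p = 0.039). The colon calls stood near the threshold, with adjusted p of 0.000405 to 0.0573 for Cdkn1a and 0.000632 to 0.124 for Dusp1 over their alternatives. Leaving out any 1 library other than LPS replicate 1 ended the Cdkn1a call (adjusted p = 0.0806 to 0.158), and leaving out any other than LPS replicate 1 or PBS replicate 2 ended that of Dusp1 (0.0679 to 0.198). Over all 8 left-out libraries the log2 fold changes lay between 1.15 and 1.38 for Cdkn1a and between 1.29 and 1.92 for Dusp1.

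Txnip went the other way. Its PBS libraries of the small intestine read 723, 992, 1118 and 1182 CPM and its LPS libraries 291, 351, 356 and 622 CPM. All 4 LPS libraries were below all PBS libraries, and Txnip fell by 1.31 ± 0.25 on the log2 scale (edgeR, adjusted p = 0.0097, or 0.0678 in a fit of these groups alone, in a range of 1.99e-05 to 0.0678 over its alternatives). In the colon the groups also did not overlap (952, 1272, 1313 and 1417 CPM with PBS, 604, 729, 818 and 902 CPM with LPS), but the log2 fold change of -0.70 ± 0.25 did not pass the test (adjusted p = 0.419). The difference between the regions was not called (0.61 ± 0.35, adjusted p = 1.00). In GENCODE vM21, 19.4% of the exonic bases of Txnip, 7.68% of those of Cdkn1a and 0.332% of those of Dusp1 lie opposite exons of Gm15441, AC167363.2 and Ergic1. Whether counting used strand is not given in the sources used here, so reads of these pairs cannot be told apart.

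The dampener of inflammation Tsc22d3 read 504, 698, 761 and 1319 CPM with PBS and 169, 262, 267 and 454 CPM with LPS in the small intestine. These groups did not overlap and the log2 fold change was -1.51 ± 0.39, but edgeR's adjusted p was 0.10. It was called by DESeq2 (adjusted p = 0.00612) and with a replicate block (0.00543), in a range of 0.00543 to 0.133 over its alternatives. In the colon its values overlapped, with 539, 1044, 1235 and 1394 CPM with PBS, 358, 472, 553 and 984 CPM with LPS, and a log2 fold change of -0.83 ± 0.39 (adjusted p = 0.645).

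In the small intestine, Fkbp5 read 20.3, 32.2, 52.6 and 54.6 CPM with PBS and 42.4, 50.5, 51.2 and 73.8 CPM with LPS. Its colon libraries read 11.9, 54.0, 77.4 and 82.5 CPM with PBS and 1.56, 53, 102 and 166 CPM with LPS. Both pairs of groups overlapped and the colon libraries of either treatment were widely spread. The log2 fold changes were 0.45 ± 0.78, with a 95% interval of -1.09 to 1.98, and 0.52 ± 0.78, with an interval of -1.02 to 2.05. With 1 library left out they ran from 0.23 to 0.64 and from -0.12 to 0.94. The intervals are wide, so a change of moderate size in either direction was not detectable.

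The other members did not pass the test at 2 h. Zbtb16 in the colon read 30.6, 34.6, 42.7 and 71.0 CPM with PBS and 82.1, 88.3, 104 and 134 CPM with LPS, without overlap (log2 fold change 1.19 ± 0.38, adjusted p = 0.315). Per1 in the small intestine also separated, with 10.7, 13.3, 13.4 and 16.7 CPM against 17.3, 19.8, 22.0 and 23.3 CPM, but by a small step (0.61 ± 0.69), and in the colon its log2 fold change was 1.30 ± 0.70 with overlap. Zbtb16 in the small intestine had 0.58 ± 0.38. Klf9 had log2 fold changes of 0.43 ± 0.26 and 0.55 ± 0.26 in the 2 regions, and Sgk1 of -0.16 ± 0.27 and -0.23 ± 0.27. Nr3c1 had -0.50 ± 0.31 and -0.76 ± 0.32, with 98.7 ± 39.9 CPM under PBS against 69.7 ± 20.3 CPM under LPS in the small intestine (SD, n = 4) and 187 ± 57.3 against 110.3 ± 24.0 CPM in the colon. With 1 library left out, the small-intestinal values ran from -0.66 to -0.18 for Nr3c1, the smallest change without PBS replicate 3, from 0.32 to 0.91 for Zbtb16 and from -0.29 to -0.0054 for Sgk1. No member and 0% of all genes were called for a difference between the regions (edgeR), with 0 members at an unadjusted p under 0.05, 452 of all genes at that level, and no member by DESeq2.

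**Figure D1:**
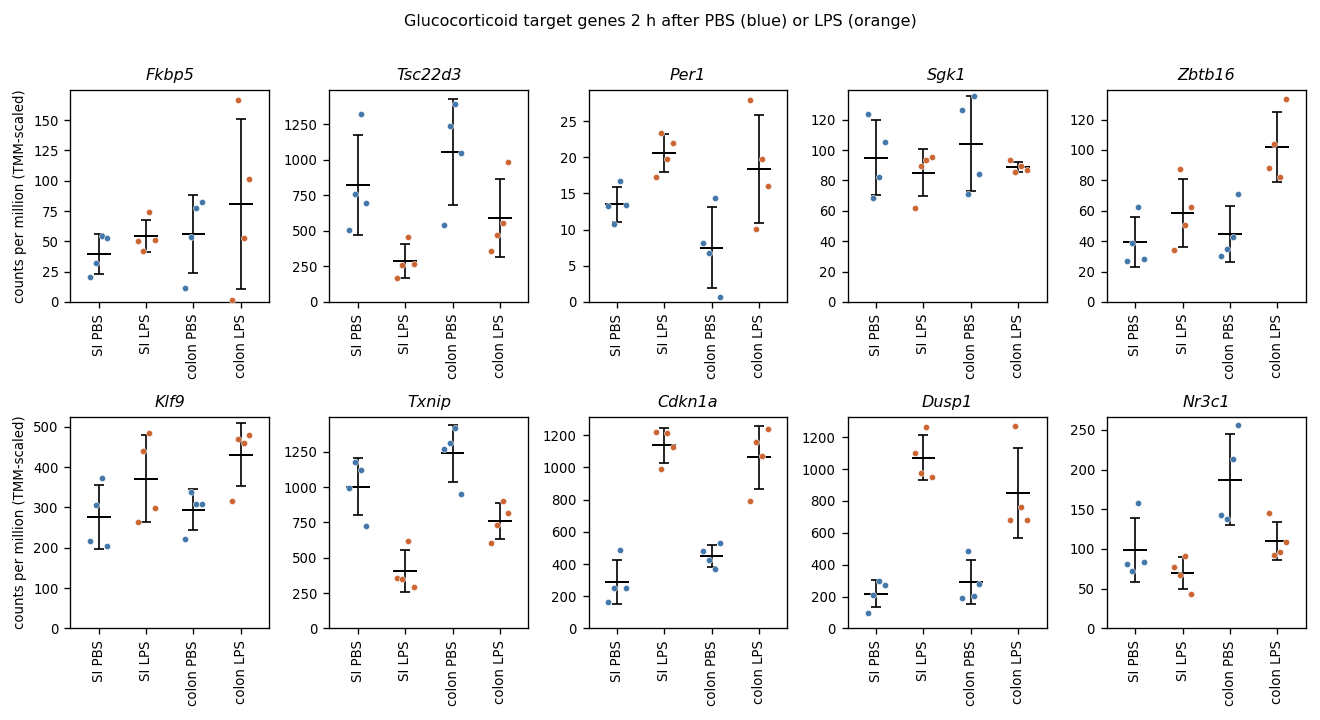
CPM (linear axes, each from 0) of the 10 members 2 h after PBS (blue) or LPS (orange), in the small intestine (SI) and the colon. Each point is 1 library (n = 4 per group), and black lines give the mean ± SD. Dusp1 and Cdkn1a are higher in every LPS library than in any PBS library of the same region, and Txnip is lower.

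At 24 h Fkbp5 rose in all 4 LPS comparisons, in both regions and both genotypes, with log2 fold changes of 2.03 to 2.59, and no other member was called in all 4. Cdkn1a rose in both regions of wild-type mice, Nr3c1 fell in the wild-type small intestine, and the Dusp1 groups overlapped in every comparison. In wild-type mice the calls were 3 of 10 members in the small intestine, beside 7.17% of the 14903 genes tested, and 2 of 10 in the colon, beside 7.96%. In knockouts Fkbp5 alone of the 10 was called in each region, beside 0.718% of all genes in each. The members' median log2 fold changes were 0.85 and 0.96 in wild-type small intestine and colon and 0.34 and 0.77 in knockouts, against -0.13, -0.03, -0.05 and -0.07 over all genes.

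Fkbp5 ran from 9.37 to 43.2 CPM (median 23.5) in the 6 wild-type PBS libraries of the small intestine and read 67.5, 141, 176 and 189 CPM with LPS. No LPS library overlapped the PBS range, and the log2 fold change was 2.56 ± 0.45 (edgeR, adjusted p = 0.000338). In the wild-type colon it read 17.9, 27.3, 45.2 and 47.6 CPM with PBS and 47.1, 145, 153, 167 and 192 CPM with LPS. Only the library of mouse 8 lay inside the PBS range, and the log2 fold change was 2.03 ± 0.50 (adjusted p = 0.0107). Without the PBS library of mouse 19 it was 1.82 (adjusted p = 0.0537), and its alternatives spanned 0.000406 to 0.0335.

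In knockouts Fkbp5 read 14.0, 18.2, 27.7 and 29.9 CPM with PBS and 75.0, 93.7, 116, 117 and 189.8 CPM with LPS in the small intestine. The groups did not overlap, and the log2 fold change was 2.40 ± 0.51 (edgeR, adjusted p = 0.0123). Without the PBS library of mouse 12 it was 2.37 (adjusted p = 0.0561), and without that of mouse 7 it was 2.30 (0.0657), while its alternatives spanned 3.73e-05 to 0.0415. In the knockout colon the values were 4.25, 19.7, 21.4, 28.0 and 52.8 CPM with PBS and 83.2, 131, 171 and 226 CPM with LPS. These too did not overlap, and the log2 fold change of 2.59 ± 0.48 (adjusted p = 0.00619) ranked 15 among the 14903 genes by p. The call was lost in a fit of these groups alone (adjusted p = 0.187, in a range of 8.94e-06 to 0.187 over its alternatives).

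Over all 37 libraries, 17 of 18 LPS libraries had more Fkbp5 than every PBS library, and the LPS libraries spanned 47.1 to 226 CPM against 4.25 to 52.8 CPM in the 19 PBS libraries. The difference between genotypes in the response was -0.16 ± 0.65 on the log2 scale in the small intestine, with a 95% interval of -1.43 to 1.11, and 0.56 ± 0.66 in the colon, with an interval of -0.73 to 1.85. Neutrophil markers were also higher with LPS in these groups, and their part in the Fkbp5 values was not tested. In mice numbered 11 and above, with the lower mitochondrial share, the log2 fold changes of Fkbp5 were 2.80 and 2.40 in wild-type small intestine and colon and 2.39 and 1.94 in knockouts, and all 4 passed the test. Without mouse 3 those of the wild-type groups were 2.80 and 2.04, and without mouse 5 that of the colon was 2.00 (adjusted p = 0.0158). Fewer cells of a type and less RNA per cell cannot be told apart in such bulk libraries.

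Cdkn1a ran from 125 to 424 CPM (median 246) with PBS in the wild-type small intestine and read 554, 715, 717 and 973 CPM with LPS. The gap was complete, and the log2 fold change was 1.53 ± 0.28 (edgeR, adjusted p = 0.000576). Colon libraries of wild-type mice read 202, 208, 233 and 264 CPM with PBS and 569, 741, 823, 835 and 966 CPM with LPS. Every LPS library was above the highest PBS library, by a log2 fold change of 1.79 ± 0.32 (adjusted p = 0.000607), or 1.71 without mouse 5 (0.00162). In mice numbered 11 and above the log2 fold changes were 1.24 (adjusted p = 0.00739) for small intestine and 1.81 (0.000612) for colon. The knockout values were closer together. In the small intestine they were 218, 279.9, 296 and 304 CPM with PBS and 401, 422, 456, 485 and 647 CPM with LPS, without overlap (0.81 ± 0.30, adjusted p = 0.245). In the colon they were 128, 166, 189.7, 315 and 396 CPM with PBS and 393, 395, 466 and 723 CPM with LPS, with overlap from mouse 1 (1.05 ± 0.30, adjusted p = 0.10). Without that PBS library of mouse 1 the knockout colon was called (1.31, adjusted p = 0.0396, in a range of 0.0249 to 0.507 over its alternatives). The test of the difference between genotypes gave -0.72 ± 0.41 in the small intestine (unadjusted p = 0.0907, adjusted p = 1.00) and -0.75 ± 0.43 in the colon (unadjusted p = 0.0891, adjusted p = 0.456). In mice numbered 11 and above the small-intestinal difference was -0.34, in a range of -0.76 to -0.34 over its alternatives, and the colonic one was -0.49 without the PBS library of mouse 1, in a range of -0.99 to -0.49 with 1 library left out. A difference in response between the genotypes was not called in any of these fits.

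Nr3c1, the receptor gene itself, was lower in most LPS libraries. It ran from 118 to 169.5 CPM (median 136) with PBS in the wild-type small intestine and read 7.44, 62.5, 72.2 and 91.9 CPM with LPS. Every LPS library was below the PBS range, and Nr3c1 fell by 1.23 ± 0.37 on the log2 scale (edgeR, adjusted p = 0.0362). The lowest library, of mouse 3, is one whose Gpr37 count was 0. Without mouse 3 the log2 fold change was -0.85 (adjusted p = 0.0661, in a range of 0.00517 to 0.128 over its alternatives), and the call was lost in 8 of 10 fits that left out 1 library, all but those without the LPS library of mouse 13 or the PBS library of mouse 23. The wild-type colon values were 154, 164, 176 and 184 CPM with PBS and 34.6, 58.7, 85.9, 107 and 125 CPM with LPS, again without overlap, and the log2 fold change of -1.04 ± 0.37 had an adjusted p of 0.069. It was called by DESeq2 (adjusted p = 0.0332), without mouse 3 (0.0332), in mice numbered 11 and above (-0.78, 0.0497) and without mouse 5 (-1.24, 0.0416), and its alternatives spanned 0.0332 to 0.162. The small-intestinal value in mice numbered 11 and above was also -0.78 (adjusted p = 0.0448). In knockouts it read 121, 128, 138 and 161 CPM with PBS and 60.5, 69.3, 77.1, 99.5 and 107 CPM with LPS in the small intestine (-0.73 ± 0.37, adjusted p = 0.454). The knockout colon read 136, 149, 158, 186 and 186 CPM with PBS and 67.5, 69.7, 116 and 137 CPM with LPS (-0.74 ± 0.37, adjusted p = 0.42). In 16 of 18 LPS libraries Nr3c1 was below every PBS library of the experiment, though only 1 of the 4 comparisons passed the edgeR test on all libraries. Fibroblast markers were also lower with LPS in wild-type mice, and their part in the Nr3c1 values was not tested.

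**Figure D2:**
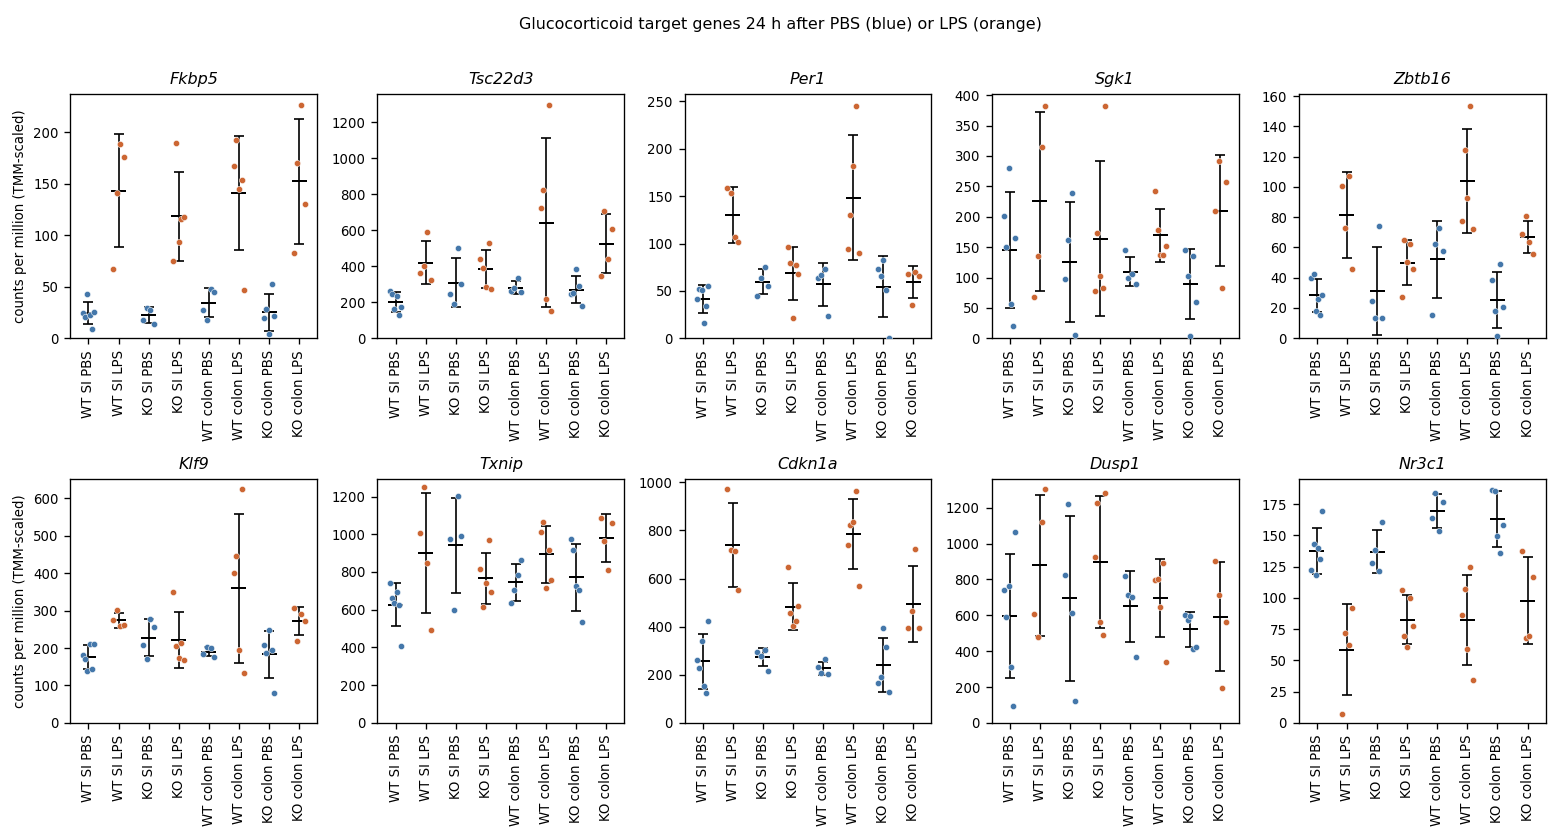
CPM (linear axes, each from 0) of the 10 members 24 h after PBS (blue) or LPS (orange), by genotype and region. Each point is 1 library (n = 4 to 6 per group), and black lines give the mean ± SD. Fkbp5 is at 47.1 CPM or more with LPS and at 52.8 CPM or less with PBS, and Per1 separates by treatment in wild-type mice, where its lowest LPS value is 90.1 CPM, but not in knockouts.

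Per1, the clock repressor, had the largest difference between genotypes in log2 fold change of any member in each region, and it did not pass the test. In the wild-type small intestine it ran from 16.1 to 55.1 CPM (median 45.8) with PBS and read 102, 107, 153 and 159 CPM with LPS. Colon libraries of the same genotype read 23.9, 63.4, 67.2 and 73.0 CPM with PBS and 90.1, 93.9, 130.0, 182 and 246 CPM with LPS. In both regions every wild-type LPS library was above every wild-type PBS library, with log2 fold changes of 1.65 ± 0.53 (edgeR, adjusted p = 0.0539) and 1.38 ± 0.58 (adjusted p = 0.129). In the small intestine the call was made by DESeq2 (1.65, adjusted p = 0.0197), in a fit of these groups alone (0.00388), with mice numbered 11 and above (0.0274), and without the LPS library of mouse 13 (0.0486) or the PBS library of mouse 14 (0.0494). Its alternatives spanned an adjusted p of 0.00388 to 0.127. In the colon of mice numbered 11 and above the log2 fold change was 1.00 (adjusted p = 0.12).

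Knockout libraries overlapped for Per1 in both regions. They read 44.4, 55.0, 63.9 and 75.5 CPM with PBS and 21.8, 67.8, 77.1, 79.3 and 96.7 CPM with LPS in the small intestine, with a log2 fold change of 0.20 ± 0.56. The colon values were 0.451, 51.1, 65.9, 73.2 and 82.5 CPM with PBS and 34.7, 65.7, 67.9 and 69.4 CPM with LPS, with a log2 fold change of 0.12 ± 0.56. The PBS library at 0.451 CPM, of mouse 7, rests on 2 counts, and without it the log2 fold change was -0.19. The difference between genotypes was -1.45 ± 0.77 in the small intestine (unadjusted p = 0.0697, adjusted p = 1.00) and -1.26 ± 0.80 in the colon (unadjusted p = 0.126, adjusted p = 0.517). In mice numbered 11 and above the small-intestinal difference was -0.89, in a range of -1.47 to -0.89 over its alternatives. The 95% intervals on all mice, -2.97 to 0.07 and -2.84 to 0.31, include 0 and also differences as large as the wild-type response.

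Zbtb16, a zinc finger repressor, ran from 15.5 to 42.5 CPM (median 27.2) with PBS in the wild-type small intestine and read 45.7, 72.6, 101 and 107 CPM with LPS, without overlap (1.52 ± 0.52, edgeR adjusted p = 0.071). It was called by DESeq2 (adjusted p = 0.0362), in a fit of these groups alone (0.0094), with the mouse division as covariate (0.0451) and without the LPS library of mouse 13 (0.0468), and its alternatives spanned 0.0094 to 0.163. In the wild-type colon it read 15.3, 57.9, 62.5 and 72.9 CPM with PBS and 72.0, 77.2, 92.4, 125 and 154 CPM with LPS (1.00 ± 0.56). In the knockout colon it read 1.34, 18, 20.5, 38.4 and 48.8 CPM with PBS and 55.8, 63.3, 68.9 and 80.9 CPM with LPS. These last groups did not overlap, but the log2 fold change of 1.40 ± 0.55 had an adjusted p of 0.278. The knockout small intestine had 0.66 ± 0.56, or 1.54 without the PBS library of mouse 20 (adjusted p = 0.314), in a range of 0.49 to 1.54 with 1 library left out.

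Tsc22d3 had positive log2 fold changes at 24 h, where those at 2 h were negative, and did not pass the edgeR test on all libraries at either time. In the wild-type small intestine it ran from 129 to 262 CPM (median 203) with PBS and read 322, 365, 404 and 592 CPM with LPS, without overlap (1.06 ± 0.37, edgeR adjusted p = 0.0775). There it was called by DESeq2 (adjusted p = 0.0379), in a fit of these groups alone (0.0109) and in mice numbered 11 and above (0.0246), and its alternatives spanned 0.0109 to 0.189. In the wild-type colon the PBS libraries were close, at 255, 260.2, 278 and 332 CPM, and the LPS libraries were not, at 149.9, 221, 723, 822 and 1298 CPM (1.19 ± 0.40, adjusted p = 0.0599). The low LPS libraries were those of mice 8 and 3. Without mouse 8's library the log2 fold change was 1.44 (adjusted p = 0.0157), without mouse 3's it was 1.41 (0.0275), and without that of mouse 5 it was 0.77 (0.197). Its alternatives spanned an adjusted p of 0.0068 to 0.253. In knockouts Tsc22d3 had 0.31 ± 0.40 in small intestine, or 0.17 to 0.65 with 1 library left out, and 0.96 ± 0.39 in colon, where 271 ± 76.2 CPM with PBS (SD, n = 5) stood against 526 ± 164 CPM with LPS (n = 4).

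Klf9, a Krüppel-like transcription factor, was laid out in a similar way. In the wild-type colon its PBS libraries read 175, 185, 199.9 and 203 CPM and its LPS libraries 133, 194, 402, 446 and 626 CPM, the low ones again from mice 8 and 3. Its log2 fold change was 0.92 ± 0.31 (edgeR, adjusted p = 0.0615), 1.13 without mouse 8's library (0.0163), 1.07 without mouse 3's (0.0369) and 0.62 without that of mouse 5 (0.183). Its alternatives spanned an adjusted p of 0.00283 to 0.22. These libraries of mice 8 and 3 held neutrophil marker sums of 1958 and 2310 CPM, against 9.32 to 63.0 CPM in the other LPS libraries of that group, and the part of those cells in the low values was not tested. In the wild-type small intestine the groups did not overlap (0.64 ± 0.29, adjusted p = 0.195, or 0.0221 in a fit of these groups alone, in a range of 0.0221 to 0.293 over its alternatives), and in knockouts the log2 fold changes were -0.04 ± 0.31 and 0.57 ± 0.31.

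Sgk1, Txnip and Dusp1 did not pass the edgeR test on all libraries at 24 h. Sgk1, the member with the full palindrome in its printed promoter, was spread widely with PBS, from 19.5 to 281 CPM in the wild-type small intestine and from 4.25 to 145 CPM in the knockout colon, and its log2 fold changes were 0.63 ± 0.69, 0.62 ± 0.73, 0.38 ± 0.73 and 1.23 ± 0.72 in wild-type small intestine and colon and knockout small intestine and colon. The value in wild-type colon spanned 0.62 to 1.79 over its alternatives, the highest with the mouse division as covariate (adjusted p = 0.082), that in wild-type small intestine 0.60 to 1.19 and that in knockout small intestine 0.37 to 0.97. With 1 library left out the wild-type small intestine gave 0.29 to 0.97. Dusp1 had 0.56 ± 0.49, 0.09 ± 0.51, 0.37 ± 0.51 and 0.19 ± 0.51 in the same order. In wild-type colon its alternatives spanned 0.0066 to 0.84, the highest again with the mouse division as covariate, and with 1 library left out it ran from 0.34 to 0.86 in wild-type and from 0.081 to 0.85 in knockout small intestine. Its PBS libraries ran up to 1221 CPM at 24 h. Txnip had 0.52 ± 0.22, 0.26 ± 0.23, -0.30 ± 0.23 and 0.35 ± 0.23. In wild-type small intestine it was called without the LPS library of mouse 13 (0.79, edgeR adjusted p = 0.0192), ran from 0.32 to 0.79 with 1 library left out, and was 0.16 (0.764) in mice numbered 11 and above. In the small intestine it averaged 628 ± 116 CPM with PBS (SD, n = 6) and 900.3 ± 318 CPM with LPS (n = 4) in wild-type mice, against 942 ± 252 CPM (n = 4) and 767 ± 134 CPM (n = 5) in knockouts. Its difference between genotypes there, -0.82 ± 0.32, had the smallest unadjusted p of any member (0.0153) and was not called (edgeR, adjusted p = 1.00), and it was -0.50 in mice numbered 11 and above.

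No member and 0% of the genes were called for a difference between genotypes in the response to LPS in the small intestine or the colon (edgeR). At an unadjusted p under 0.05 there was 1 member, Txnip, in the small intestine and none in the colon, beside 578 and 2009 of all genes, and DESeq2 called no member in either and 59 and 340 of all genes. The same held for the difference between regions in wild-type and in knockout mice, with 0 members and 0% of the genes called by edgeR, 0 members and 1126 and 615 genes at an unadjusted p under 0.05, and 0 members called by DESeq2. Of the 22 mice 15 gave both regions, and the edgeR fit treats their libraries as independent. With mouse as a block (limma voom, correlation 0.139 between libraries of a mouse) no member and no gene was called between regions in either genotype. Without LPS, no member and 0% of the genes differed by this test between knockout and wild-type mice in either region. Txnip in the small intestine, with 0.59 ± 0.22, was the only member at an unadjusted p under 0.05, beside 256 of all genes there and 629 in colon, and DESeq2 called none. A p that misses the threshold does not show that genotypes or regions respond alike.

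**Figure D3:**
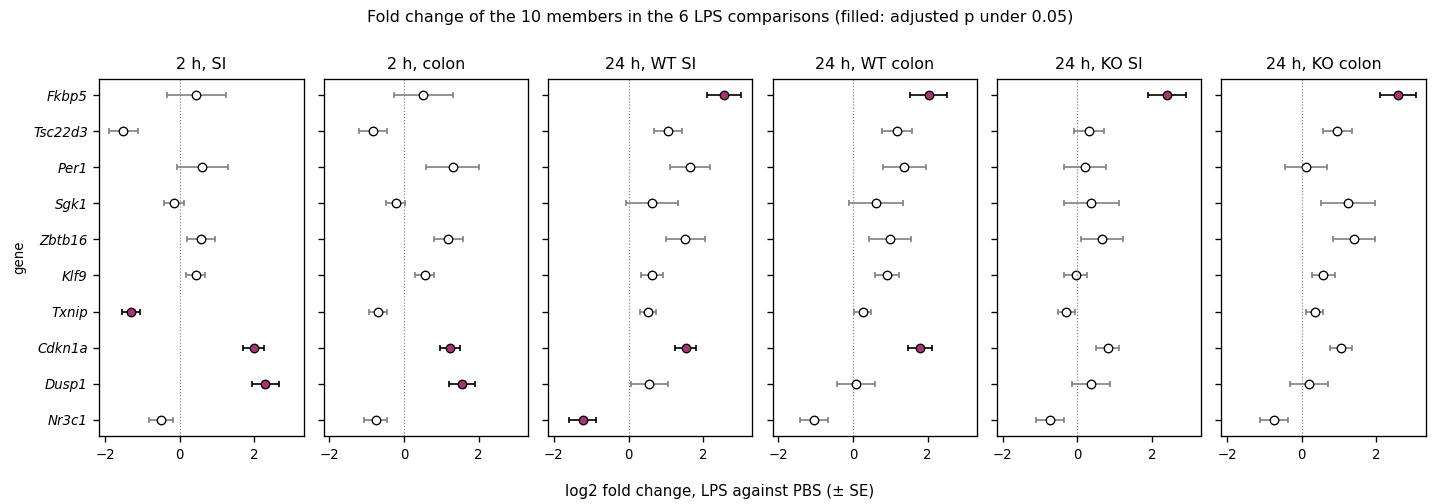
Log2 fold change (LPS against PBS) ± SE of the 10 members in the 6 LPS comparisons, from edgeR. Filled points have a Benjamini-Hochberg adjusted p under 0.05 over all genes tested. At 2 h Dusp1 and Cdkn1a are filled in both panels and Txnip in that of the small intestine alone, and Fkbp5 is filled in all 4 panels at 24 h.

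A list of 18 other genes known to respond to glucocorticoids was read beside the members, and every call in it was upwards. Of the 16 listed genes that could be tested at 2 h, 4 rose in the small intestine and the same 4 in the colon. These were the metallothioneins Mt2 (log2 fold changes 4.74 ± 0.35 and 4.18 ± 0.34) and Mt1 (3.69 ± 0.32 and 3.12 ± 0.32), which bind zinc and copper, and the transcription factors Cebpb (3.89 ± 0.77 and 3.44 ± 0.75) and Cebpd (2.70 ± 0.30 and 2.59 ± 0.30). Metallothionein and C/EBP genes are also induced by inflammatory cytokines.

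At 24 h 6 of 17 rose in wild-type small intestine and 8 of 17 in wild-type colon, beside 7.17% and 7.96% of all genes. In the small intestine the largest were Mt2 (6.22 ± 0.67), Mt1 (4.74 ± 0.48), Pdk4 (2.04 ± 0.64), a kinase that turns cells from glucose to fat oxidation, and Cebpb (2.03 ± 0.62). In the colon they were Mt2 (4.80 ± 0.74), Mt1 (4.02 ± 0.54) and the arrestin-domain gene Arrdc2 (3.72 ± 0.92), beside Hif3a, which held 1 count in all in the 4 PBS libraries and 1, 1, 8, 35 and 42 counts in the LPS libraries, so that no fold is given. In knockouts, with 0.718% of all genes called in each region, 2 of 17 rose in the small intestine, Mt2 (4.43 ± 0.72) and Mt1 (3.60 ± 0.53). The knockout colon had 4 of 17, Mt2 (5.17 ± 0.69), Mt1 (3.77 ± 0.50), the lipase inhibitor Angptl4 (3.27 ± 0.74) and Cebpd (1.61 ± 0.31). The median log2 fold change of the list was 0.69 and 0.13 at 2 h (small intestine, colon), 1.16 and 1.59 in wild-type and 1.26 and 1.23 in knockout mice at 24 h.

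**Figure D4:**
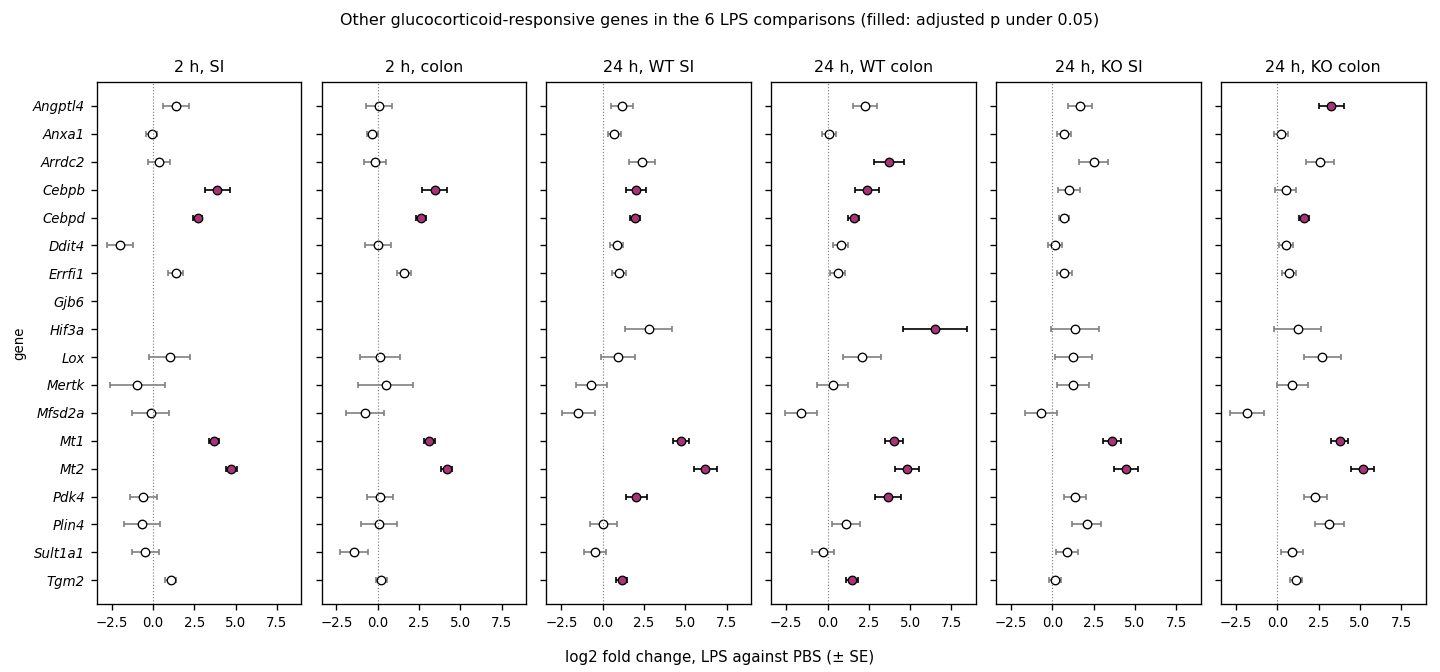
Log2 fold change (LPS against PBS) ± SE of 18 other glucocorticoid-responsive genes, from edgeR, with filled points at an adjusted p under 0.05. A gene with no point did not pass the filter on low counts in that experiment. Mt1 and Mt2 are filled in all 6 panels, and the point of Hif3a in wild-type colon rests on 1 count with PBS.

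Of 13 genes (12 tested at 2 h) for chaperones, co-regulators, the mineralocorticoid receptor and the enzymes that activate or inactivate corticosterone, 2 fell in the wild-type small intestine at 24 h. These were Fkbp4, the co-chaperone that opposes Fkbp5 (-0.99 ± 0.29, edgeR adjusted p = 0.0294), and the co-repressor Ncor1 (-0.66 ± 0.19, 0.0286). In that comparison 7.17% of all genes were called in either direction. In the other 5 LPS comparisons none was called by edgeR, with 0, 0, 1, 0 and 1 at an unadjusted p under 0.05 (2 h small intestine and colon, then wild-type colon and knockout small intestine and colon).

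For the members that answer to other signals as well, the companion genes of those signals were as follows. Of 10 immediate early genes, 8 rose at 2 h in the small intestine, led by Atf3 (4.48 ± 0.94), Junb (4.10 ± 0.41), Zfp36 (3.07 ± 0.50) and Egr1 (2.78 ± 0.38), and 6 rose in the colon, led by Junb (3.31 ± 0.40), Zfp36 (3.14 ± 0.50), Egr1 (2.18 ± 0.38) and Ier2 (1.67 ± 0.26). At 24 h none was called in any of the 4 comparisons by edgeR, and none had an unadjusted p under 0.05. Of 10 NF-kB response genes, 9 rose in each region at 2 h, 6 and 8 in wild-type small intestine and colon at 24 h, and 2 and 3 in knockouts. The chemokine Ccl2 was among those called in all 6 comparisons, with log2 fold changes of 8.24 ± 1.18 and 7.37 ± 1.14 at 2 h, 5.99 ± 0.78 and 5.44 ± 0.90 in wild-type and 4.09 ± 0.84 and 3.86 ± 0.77 in knockout mice at 24 h. Over all genes edgeR called 1.1% and 0.778% at 2 h. At 24 h it called 7.17% and 7.96% in wild-type mice and 0.718% in each region of knockouts.

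Of 10 p53 targets beside Cdkn1a, Bax alone rose, in wild-type mice at 24 h (0.94 ± 0.22 in the small intestine, 0.78 ± 0.23 in the colon), and none was called at 2 h or in knockouts (edgeR, with 0 and 2 of 9, then 1 and 1 of 10, at an unadjusted p under 0.05). With 7.17% and 7.96% of all genes called in wild-type small intestine and colon, 1 of 10 is near that share. Of 15 clock genes beside Per1 (14 tested at 2 h), 1 rose at 2 h in the small intestine, Bhlhe40 (2.10 ± 0.47), where 1.1% of all genes were called. At 24 h 1 of the 15 rose in the wild-type small intestine, Cry1 (1.52 ± 0.39), which is near the share of all genes. No clock gene was called in the other 4 comparisons (edgeR, with 5, 6, 4 and 2 at an unadjusted p under 0.05 in the 2 h colon, wild-type colon, and knockout small intestine and colon). Of 7 genes around MondoA and thioredoxin tested at 24 h, beside Txnip, 3 rose in both regions of wild-type mice at 24 h. They were Arrdc4 (2.42 ± 0.38 and 2.29 ± 0.43), a close relative of Txnip, thioredoxin Txn1 (1.36 ± 0.35 and 1.59 ± 0.38) and its reductase Txnrd1 (1.05 ± 0.33 and 1.18 ± 0.35). None of the 7 was called in knockouts (edgeR), where 2 in small intestine and 0 in colon had an unadjusted p under 0.05. At 2 h none of the 6 tested was called, and 2 and 2 had such a p.

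Within the 24 h groups, with the group means removed, some genes varied from library to library much as a member did. Over 37 libraries and 14902 other genes, the closest to Fkbp5 were Ptger2 (Pearson r = 0.785), Noct (0.768) and Slc7a6 (0.752). For Tsc22d3 they were Cyren (0.795), Tmem140 (0.785) and the fellow member Klf9 (0.781). Klf9 and Tsc22d3 also varied together over the 16 libraries at 2 h (0.813). For Txnip the closest were Me3 (0.639), Ppp3ca (0.627) and Rab7 (0.624). Those closest to Per1, Mgat1 (0.896), Slc39a3 (0.885) and Pwp1 (0.878), rest on the knockout PBS colon library of mouse 7, since without it the values were 0.410, 0.270 and 0.233. These values describe libraries that share mice and differ in depth, and they come from the largest of many.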

How the data were processed

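RNA was extracted from the cells and libraries were made with Smart-seq2, per the labels' protocols. The authors deposited 2 tables of raw counts per gene symbol, made with Trim Galore 0.4.4, STAR 2.5.3 and GRCm38, per the submitters' processing notes; the counter, annotation and strand setting are not given in the sources used here. From these counts, CPM were scaled by TMM factors, and edgeR 4.0.16 (R 4.3.3) was fitted by quasi-likelihood to the groups of each experiment together after filterByExpr, two-sided, over 15 comparisons. Genes were called at a Benjamini-Hochberg adjusted p under 0.05 over all genes tested, and an SE is the log2 fold change over the root of F. The members and gene lists were chosen with earlier results of these data known. All members were named, as were up to 4 called genes of each other list per LPS comparison by size of change, and the 3 genes most like Fkbp5, Tsc22d3, Per1 and Txnip in log2 CPM (prior count 2).

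Alternatives were DESeq2 1.42.0, other size factors, no filter, sex, a replicate block, the compared groups alone, the division by mouse number, mouse as a block (limma 3.58.1 voom, for differences between regions), leaving out mouse 3 and leaving out each library, which for the likeness values was added after seeing the data. Replicate numbers come from the sample titles. Deviations from the group means correlated between same-numbered libraries of PBS and LPS above 0.1 in every pair only in the knockout colon (0.12 to 0.277, 4 pairs), where the mice differ. Where nothing in the labels ties libraries to separate mice, at 2 h, p-values measure the spread between libraries. In all 143 pairs of replicates the counts differed by more than sampling noise. At these depths 3 counts were worth 0.359 to 1.46 CPM at 2 h and 0.0933 to 1.09 CPM at 24 h. Exon lengths came from GENCODE vM21 and promoters from RefSeq GRCm38.p6. The scripts were tested on simulated data.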

Additional observations from a re-analysis of the deposited data

Results flagged for a closer look

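Of 120 values of a member in a group of 4 to 6 libraries, 13 had 1 library whose distance from the nearest other was large for the group's range by Dixon's criterion on log2 CPM, where chance gives about 6 at 1 in 20. All 13 were the lowest library of their group on that scale, which spreads low values out. On linear CPM the criterion marked 3 lowest and 3 highest libraries, and of the 13 it kept 3: Klf9 in the 2 h LPS colon, Per1 in the knockout LPS colon and Txnip in the wild-type PBS small intestine.

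At 2 h, Klf9 was at 315 CPM in 1 LPS colon library against 459.6 CPM in the next, and Sgk1 at 62.0 CPM in 1 LPS library of the small intestine against 89.2 CPM. At 24 h, Nr3c1 was at 7.44 CPM (29 counts) in the wild-type LPS library of mouse 3 from the small intestine, against 62.5 CPM in the next. Fkbp5 was at 47.1 CPM in the wild-type LPS colon library of mouse 8, against 145 CPM.

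Per1 had 4 such groups. It was at 0.451 CPM (2 counts) in the knockout PBS colon library of mouse 7, against 51.1 CPM, and at 23.9 CPM in the wild-type PBS colon library of mouse 24, against 63.4 CPM. With LPS it was at 21.8 CPM in the knockout small intestine of mouse 10, against 67.8 CPM, and at 34.7 CPM in the knockout colon of mouse 17, against 65.7 CPM.

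The knockout PBS colon library of mouse 7 also had the low Klf9 value of 78.7 CPM, against 186 CPM. The knockout PBS colon library of mouse 1 was low in Sgk1, at 4.25 CPM against 59.5 CPM, and in Zbtb16, at 1.34 CPM against 18 CPM. Mouse 14 had low PBS values in wild-type mice, with Txnip at 407 CPM in the small intestine, against 623 CPM, and Zbtb16 at 15.3 CPM in the colon, against 57.9 CPM.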

How the results depend on the processing

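Under alternatives other than leaving out 1 library, 519 values of members kept direction and side of the threshold, 25 gained a call, 9 lost one and 7 changed sign. Of all genes, DESeq2 called 261 and 277 at 2 h (small intestine, colon), 1875 and 2255 in wild-type and 527 and 474 in knockout mice, against 144 and 102, 1069 and 1186, and 107 and 107 by edgeR. Members called in the 2 h colon (2) came to 1 with sex, with the replicate block and with the groups alone, and to 0 to 2 with 1 library left out. In wild-type small intestine (3) they came to 6 by DESeq2, 6 with the groups alone, 5 in mice numbered 11 and above and 2 to 6 with 1 library left out. In wild-type colon (2) they came to 5 by DESeq2, 4 with the replicate block, 5 in mice numbered 11 and above, 5 without mouse 3 and 1 to 4 with 1 left out. In knockout small intestine (1) the range was 0 to 1. In knockout colon (1) there were 2 by DESeq2, 0 with the groups alone and 1 to 2 with 1 left out. Calls among all genes moved too: 93 with sex, 88 with the replicate block and 63 with the groups alone in the 2 h colon; 1704 with the groups alone and 1485 in mice numbered 11 and above in wild-type small intestine; 945 with the block, 1468 in mice numbered 11 and above and 863 without mouse 3 in wild-type colon; and 7 with the groups alone in knockout colon. The cause was not tested.

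Changes of sign were all in members without a call. Klf9 in knockout small intestine was 0.00486 with other size factors, 0.00524 by DESeq2, 0.00456 without a filter, 0.12 with the replicate block and 0.18 in mice numbered 11 and above, and -0.19 to 0.10 with 1 library left out. Per1 in knockout colon was -0.15 in mice numbered 11 and above and -0.19 to 0.32 with 1 left out. Dusp1 in knockout colon was -0.25 with the mouse division as covariate and -0.070 to 0.48 with 1 left out. The ranges were -0.12 to 0.94 for Fkbp5 in the 2 h colon, -0.10 to 0.27 for Dusp1 in wild-type colon and -0.13 to 0.89 for Sgk1 in knockout small intestine. With the replicate block, Fkbp5 in knockout colon was 2.38 (edgeR, adjusted p = 0.0197). Other members without a call also moved with 1 library left out: Klf9 in the 2 h small intestine from 0.28 to 0.61, Per1 in the 2 h colon from 0.93 to 1.82, Tsc22d3 there from -1.19 to -0.63, Sgk1 there from -0.38 to -0.080, Per1 in knockout small intestine from 0.11 to 0.43, Txnip there from -0.40 to -0.16 and in wild-type colon from 0.19 to 0.33, and Zbtb16 in knockout colon from 1.09 to 1.81. Low members such as Per1 at 2 h rest on few counts, which limits their precision.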
